A study of Mus musculus with 47 samples.

Results

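The transcripts described here are those of the metabotropic glutamate receptors, the G-protein-coupled receptors through which glutamate tunes synaptic transmission, in medial prefrontal cortex (PFC) of mice exposed to chronic intermittent ethanol vapor (CIE) or to air (Ctrl). The 6 genes were chosen with earlier results of these data known, and their probesets were then taken by annotation alone. All Affymetrix Mouse Genome 430 2.0 probesets annotated to Grm2, Grm3, Grm4, Grm5, Grm7 or Grm8 and to no other gene were used. This gave 9 probesets of 6 genes, out of 45037 probesets, of which 34945 carried 1 gene symbol. Grm7 had 3 probesets, Grm5 had 2 and each other gene had 1. A further probeset annotated to both Gm28111 and Grm2 was left out.

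All mice were adult male C57BL/6J. CIE mice spent 16 h per day for 4 days in ethanol vapor held at 10 to 13 mg/l of air, were then kept from ethanol for 7 days, and went through 4 such cycles. Each cycle began with intraperitoneal ethanol (1.6 g/kg) and with pyrazole (1 mmol/kg), which blocks alcohol dehydrogenase, whereas Ctrl mice received saline with the same pyrazole dose and air, so that pyrazole was common to all groups. Harvest followed the final chamber session by 0h, 8h, 72h or 7d, with 1 mouse per array and 6 mice in each of the 8 groups except CIE at 8h, which had 5. Values were log2 expression per probeset as deposited. On this scale a difference of 1 is a doubling, and levels of different genes are not compared, since probes differ in brightness.

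Metabotropic receptors fall into 3 groups by sequence and coupling. Grm5 belongs to group I, which couples through Gq to phospholipase C and calcium release and lies mostly at the rim of the postsynaptic density. Grm2 and Grm3 form group II, and Grm4, Grm7 and Grm8 belong to group III; both groups couple to Gi/o, lower cyclic AMP and restrain transmitter release from axon terminals, and Grm3 is also made by astrocytes. In rodents, group II receptors and Grm5 are known as drug targets that alter ethanol drinking and seeking.

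None of the 9 probesets differed between CIE and Ctrl mice at FDR ≤ 0.01 at any of the 4 time points by LIMMA, with p-values adjusted over all 45037 probesets. Over the whole array, the share of probesets called was 7.28% at 0h, 3.39% at 8h, 0.528% at 72h and 0.948% at 7d, shares so low that none called among 9 is close to the background. At an unadjusted p under 0.05, 3 of 9 passed at 0h (28.6% of all probesets), 1 at 8h (28.1%), and 0 at 72h and 7d (14.3% and 17.5%). At FDR ≤ 0.05, the looser share of all probesets called was 15.4%, 11.1%, 2.12% and 3.63% at the same times, and 1 of 9, a Grm7 probeset at 8h, passed. The members' median absolute difference was 0.19 at 0h, 0.10 at 8h, 0.11 at 72h and 0.12 at 7d, against 0.12, 0.13, 0.08 and 0.09 over all probesets. Of the 9 probesets, 7 had a higher mean in CIE mice at 0h, 5 at 8h, 6 at 72h and 3 at 7d. Over all probesets these shares were 50.0%, 51.6%, 49.2% and 48.6%. The 9 signs are not independent, since some genes had several probesets and some members deviated together among mice. In every comparison the values of CIE and Ctrl mice overlapped. The share of all probesets without overlap is not given here, so this describes the members alone.

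**Figure D1:**
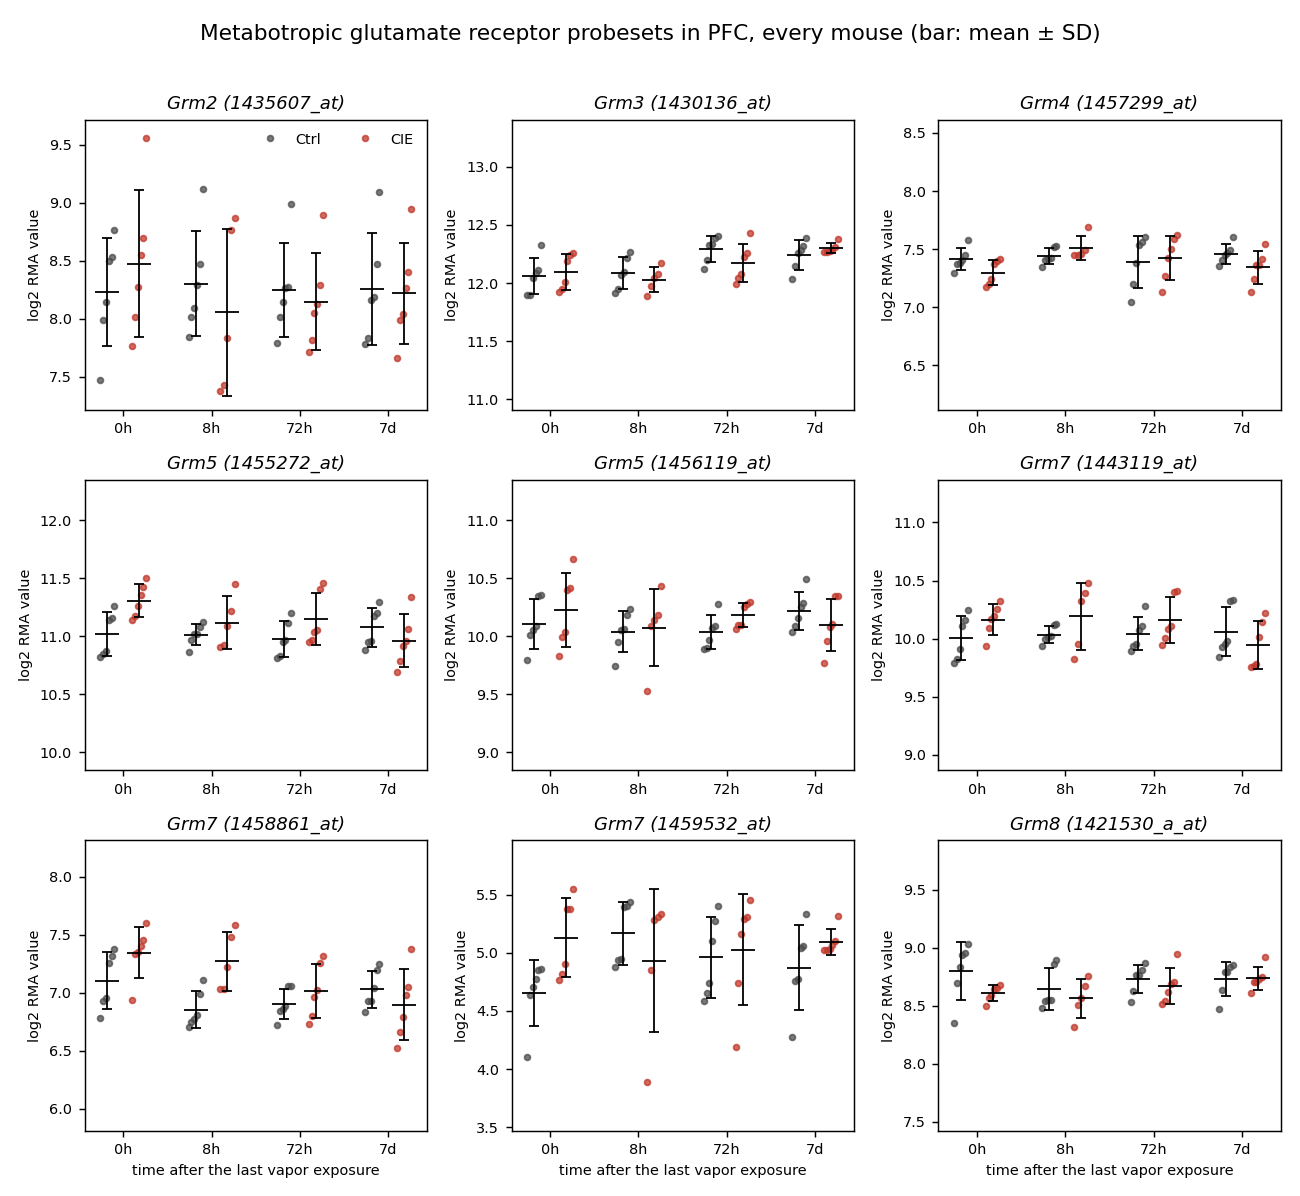
Log2 RMA value (y axis) of each mouse at each time after the last vapor exposure (x axis) for the 9 probesets, Ctrl in grey and CIE in red, with black bars at the group mean ± SD and the same span of log2 units in every panel. Ctrl and CIE points overlap at every time, and the widest scatter within groups is that of Grm2.

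Before the members, the tissue was checked against lists of marker genes. The mean of 11 cortical marker genes lay between 10.95 and 11.58 on every array, whereas the mean of 13 markers of striatum, a neighbouring region, lay between 7.99 and 10.14 and was above 9 on 8 arrays, 3 of them CIE at 0h, 2 CIE at 72h, 1 CIE at 7d and 2 Ctrl at 7d. All 13 striatal markers had a higher mean in CIE mice at 0h (median difference 0.56) and at 72h (0.49), with 0 of 13 called. Of the cortical markers, Nrn1 and Neurod6 fell at 0h and 9 of 11 were not called. Of all genes by their brightest probeset, 7.44% were called at 0h. The cortical list was split at that time, with 4 of 11 means higher and 7 lower in CIE mice (median difference −0.04). At 8h, 1 of 8 interneuron markers (Sst) and 1 of 7 microglial markers (P2ry12) fell, against 3.49% called of all genes by their brightest probeset. CIE mouse 15 at 8h, of repeat group 2 (a set of 5 arrays, all from 8h mice), had a mean correlation of 0.967 with the other arrays and CIE mouse 17 at 0h one of 0.985, against a median of 0.992. In tissue homogenates, fewer cells of a type and less RNA per cell cannot be told apart.

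Grm5, the Gq-coupled receptor, gave the member values closest to the threshold at the end of exposure. At 0h its brighter probeset (1455272_at) read 10.82 in the lowest, 11.01 in the median and 11.26 in the highest Ctrl mouse, and 11.14, 11.31 and 11.50 in CIE mice. All 6 CIE mice lay above the Ctrl mean and 3 lay above the highest Ctrl mouse. The difference was 0.29 (SE 0.10, 95% confidence interval 0.08 to 0.50), or 1.22-fold, with an adjusted p of 0.0507, which misses both thresholds. Leaving out each array in turn moved it between 0.25 and 0.34, with adjusted p between 0.0277 and 0.130. With array weights, which count arrays that scatter more for less, it was 0.35 and passed (adjusted p = 0.00732). With the mean of the striatal markers as a model term it was 0.19 (adjusted p = 0.233), and the part of these markers in the difference was not tested further.

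The other times gave smaller values for Grm5. At 8h the 5 CIE mice read 10.91, 10.93, 11.09, 11.22 and 11.45, and Ctrl mice 10.87 to 11.13 (median 11.02). At 72h CIE mice read 10.95 to 11.46 (median 11.05) and Ctrl mice 10.81 to 11.20 (median 10.96). At 7d CIE mice read 10.69 to 11.34 (median 10.94) and Ctrl mice 10.88 to 11.29 (median 11.07). CIE mice thus overlapped Ctrl mice at each of these times, and the difference of means was 0.10 at 8h, 0.17 at 72h and −0.12 at 7d. The difference between CIE and Ctrl at 7d was 0.41 lower than that at 0h on the log2 scale (95% confidence interval −0.70 to −0.11, adjusted p = 0.131). At 8h the sign rested on the repeat group: −0.04 in repeat group 1 (3 mice a group) and 0.30 in repeat group 2 (2 CIE and 3 Ctrl mice).

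The dimmer Grm5 probeset (1456119_at) differed by 0.12 at 0h (95% confidence interval −0.13 to 0.37), 0.04 at 8h, 0.15 at 72h and −0.12 at 7d, with adjusted p of 0.583 or more. At 0h 3 of 6 CIE mice were above the highest Ctrl mouse and the other 3 were below the Ctrl mean. The 2 Grm5 probesets had the same sign at every time but deviated together only loosely among mice (Pearson r = 0.38, Spearman rho = 0.37 over the deviations of 47 arrays from their group means, adjusted permutation p = 0.0675 and 0.0735).

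Grm2, the presynaptic group II receptor, had the widest scatter of the members. Ctrl mice spanned 7.47 to 8.76 at 0h (median 8.32) and CIE mice 7.76 to 9.56 (median 8.41). At 8h the 5 CIE mice split, with 7.38, 7.43 and 7.84 in 3 of them and 8.77 and 8.87 in the other 2, while Ctrl mice spanned 7.84 to 9.11 (median 8.19). At 72h and 7d the medians were 8.21 and 8.18 in Ctrl and 8.09 and 8.15 in CIE mice. The groups overlapped throughout, and the differences of 0.24, −0.25, −0.10 and −0.04 all had adjusted p of 0.612 or more. The 0h difference was 0.027 without CIE mouse 72, and the 8h difference ran from −0.45 without CIE mouse 23 to −0.077 without CIE mouse 15. Their confidence intervals reached from −0.32 to 0.81 at 0h and from −0.84 to 0.35 at 8h, so the data allow Grm2 differences within these bounds. Within repeat groups the 8h difference was −0.61 and 0.14.

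Much of the Grm2 scatter moved with the cortical markers. Over the deviations of 47 arrays from their group means, Grm2 correlated with the cortical marker mean at r = 0.80 and rho = 0.76 (adjusted permutation p = 0.000168 for both). The r was 0.76 without the 2 arrays of most extreme marker deviation, and 0.80 within the 42 arrays of repeat group 1. Grm2 also correlated with interneuron markers (r = 0.51, rho = 0.54, adjusted permutation p = 0.00886 and 0.00535) and inversely with oligodendrocyte markers (r = −0.50, rho = −0.48, adjusted permutation p = 0.00619 and 0.0113). In a fit with the cortical marker mean as a term, chosen after seeing the data, the SE at 0h went from 0.28 to 0.17, and the difference became 0.45 at 0h (adjusted p = 0.0740) and −0.44 at 8h (adjusted p = 0.103). In that fit the 8h difference was 0.88 lower than the 0h difference on the log2 scale (adjusted p = 0.0215). No Grm2 comparison passed FDR ≤ 0.01 in that fit. The cortical marker mean itself was 11.15 in CIE and 11.23 in Ctrl mice at 0h, and 11.32 and 11.24 at 8h (SDs 0.12 to 0.20). The part of these shifts in the fitted Grm2 differences was not tested.

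Grm3, the other group II receptor, was measured most precisely. At 0h Ctrl mice read 11.90 to 12.32 (median 12.07) and CIE mice 11.92 to 12.26 (median 12.10). At 8h the 5 CIE mice read 11.89, 11.97, 12.04, 12.07 and 12.17, within the Ctrl range of 11.91 to 12.27 but for the lowest. At 72h CIE mice read 11.99 to 12.43 (median 12.15) and Ctrl mice 12.12 to 12.40 (median 12.33), and 3 CIE mice lay below the lowest Ctrl mouse. At 7d CIE mice were tightly grouped, from 12.27 to 12.38, inside the Ctrl range of 12.03 to 12.39. The differences of 0.04, −0.06, −0.12 and 0.06 had 95% confidence intervals of −0.12 to 0.19, −0.22 to 0.11, −0.28 to 0.03 and −0.10 to 0.22. In fold terms the intervals ran from 0.824 to 1.16 over the 4 times.

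Grm3 also had the smallest p of the members between harvest times in air-exposed mice. Ctrl means were 12.06 ± 0.16 at 0h, 12.09 ± 0.14 at 8h, 12.29 ± 0.11 at 72h and 12.24 ± 0.13 at 7d (SD, n = 6). The 72h Ctrl mice were 0.23 above the 0h Ctrl mice (95% confidence interval 0.08 to 0.39, adjusted p = 0.0553), and the F test over the 4 Ctrl groups gave an adjusted p of 0.0872. No member passed FDR ≤ 0.01 in that F test, against 1.72% of all probesets. Among mice, Grm3 deviated with the striatal (r = 0.46, rho = 0.43, adjusted permutation p = 0.0253 and 0.0350), oligodendrocyte precursor (r = 0.50, rho = 0.49, adjusted permutation p = 0.00859 and 0.0113) and oligodendrocyte markers (r = 0.42, rho = 0.41, adjusted permutation p = 0.0454 and 0.0388). With interneuron markers it ran inversely (r = −0.41, rho = −0.47, adjusted permutation p = 0.0361 and 0.0147). With astrocyte markers the values were r = 0.20 and rho = 0.14 (adjusted permutation p = 0.379 and 0.552). With the striatal term the Grm3 difference at 0h turned from 0.04 to −0.04, both well inside its error.

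Grm7, the receptor of the presynaptic active zone, held the smallest p of all members. At 8h its middle probeset (1458861_at) read 7.03, 7.03, 7.22, 7.48 and 7.58 in the 5 CIE mice, against 6.70 in the lowest, 6.79 in the median and 7.11 in the highest Ctrl mouse. All 5 CIE mice were above the Ctrl mean and 3 were above the highest Ctrl mouse, so the groups overlapped by a pair of CIE mice. The difference was 0.41 (SE 0.13, 95% confidence interval 0.15 to 0.68), or 1.33-fold, with an adjusted p of 0.0335, short of FDR ≤ 0.01. It was 0.33 in repeat group 1 and 0.58 in repeat group 2. Without CIE mouse 15, the highest of the 5 and the array that stood apart, it was 0.34 with an adjusted p of 0.134. With the striatal term it was 0.40 (adjusted p = 0.0263).

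At the other times this Grm7 probeset differed by 0.24 at 0h (CIE 6.94 to 7.60, median 7.38; Ctrl 6.78 to 7.38, median 7.11; adjusted p = 0.189), by 0.11 at 72h and by −0.13 at 7d. With the striatal term the 0h value was 0.13. The difference at 7d was 0.37 lower than that at 0h on the log2 scale (95% confidence interval −0.73 to −0.02, adjusted p = 0.267).

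The brightest Grm7 probeset (1443119_at) did not pass at 8h either. It read 9.82, 9.95, 10.32, 10.39 and 10.48 in the 5 CIE mice and 9.94 to 10.13 in Ctrl mice (median 10.01), so 3 CIE mice were above and 1 below all Ctrl mice. The differences were 0.15 at 0h, 0.16 at 8h, 0.12 at 72h and −0.12 at 7d, with adjusted p of 0.358 or more. Repeat group 1 gave −0.05 at 8h and repeat group 2 gave 0.45.

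The dimmest Grm7 probeset (1459532_at) had a mean of 4.98, below 6.41, the median of the probeset means over the array. At 0h its 6 CIE mice read 4.77 to 5.55 (median 5.14) and Ctrl mice 4.10 to 4.86 (median 4.74), a difference of 0.48 (95% confidence interval 0.06 to 0.89, adjusted p = 0.113) with 6 of 6 CIE mice above the Ctrl mean. At 8h the sign was opposite to that of the other 2 Grm7 probesets (−0.23), with CIE mouse 15 at 3.89 and the other 4 between 4.86 and 5.33. Without CIE mouse 15 this difference was 0.027. Within repeat group 1, which does not hold that mouse, it was −0.10, and within repeat group 2 it was −0.55. Among mice the dimmest probeset ran against the other 2: r = −0.38 and rho = −0.33 with the brightest (adjusted permutation p = 0.0919 and 0.125) and r = −0.42 and rho = −0.40 with the middle one (adjusted permutation p = 0.0253 and 0.0350). The brightest and the middle probeset deviated together (r = 0.67, rho = 0.68, adjusted permutation p = 0.000168 for both). The 8h value of the middle probeset, given above, stands for that probeset alone.

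Grm8, another presynaptic group III receptor, was lower in CIE mice at 0h without passing the test. CIE mice read 8.50 to 8.68 (median 8.62) and Ctrl mice 8.35 to 9.03 (median 8.88). All 6 CIE mice lay below the Ctrl mean, and 1 Ctrl mouse, mouse 56, lay below all of them. The difference was −0.19 (SE 0.09, 95% confidence interval −0.38 to −0.01, adjusted p = 0.145). Leaving out each array in turn moved it between −0.28 (without Ctrl mouse 56) and −0.15 (without Ctrl mouse 2), with adjusted p between 0.0195 and 0.303. At 8h the 5 CIE mice read 8.32, 8.51, 8.57, 8.67 and 8.76 against 8.48 to 8.89 in Ctrl mice (median 8.55). The difference was −0.08 at 8h, −0.06 at 72h and 0.01 at 7d, each with an interval that held 0.

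Grm4, the remaining group III receptor, gave small differences at all times. At 0h CIE mice read 7.17 to 7.41 (median 7.30) and Ctrl mice 7.29 to 7.57 (median 7.39), and 3 CIE mice lay below the lowest Ctrl mouse. At 8h the 5 CIE mice read 7.45, 7.45, 7.46, 7.50 and 7.69, all above the Ctrl mean of 7.44. At 72h and 7d the CIE medians were 7.46 and 7.37 and the Ctrl medians 7.46 and 7.46. The differences of −0.11, 0.07, 0.03 and −0.12 had adjusted p of 0.366 or more, and their 95% confidence intervals stayed between −0.28 and 0.24.

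**Figure D2:**
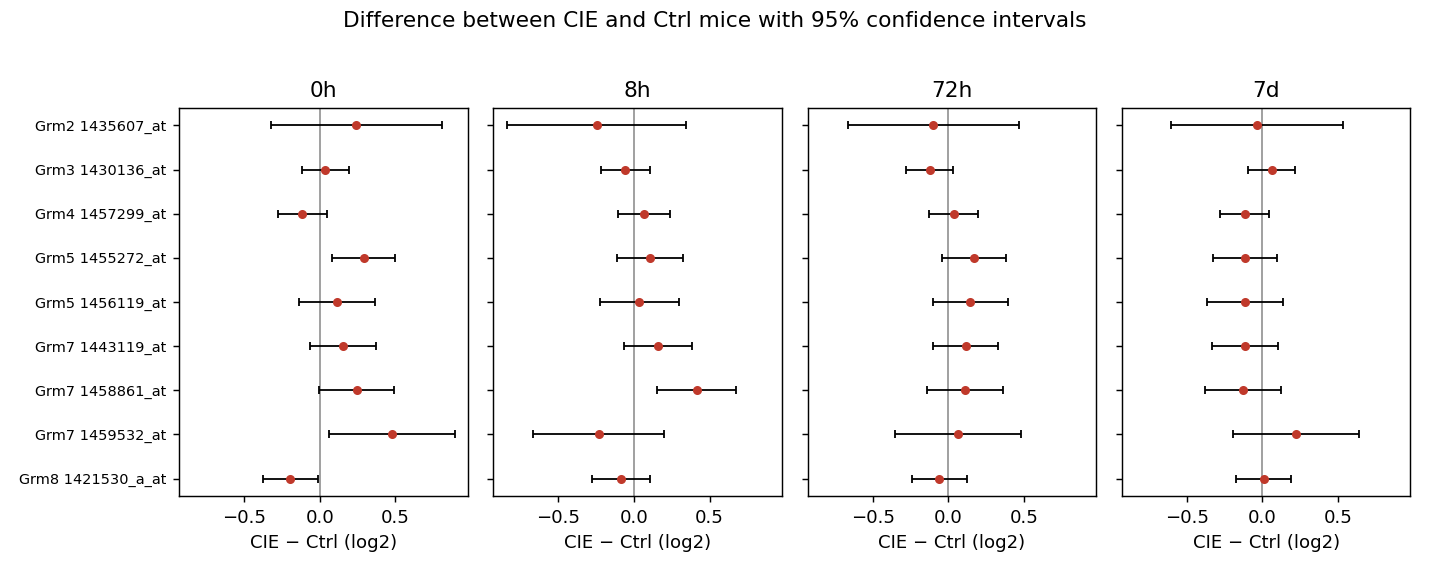
Difference between CIE and Ctrl means (x axis, log2 units) of each probeset (rows) at each time (panels), with 95% confidence intervals from the LIMMA fit. At 0h and 8h the intervals of 4 probesets exclude 0 before adjustment (Grm5 1455272_at, Grm7 1459532_at and Grm8 at 0h, Grm7 1458861_at at 8h), and none does at 72h or 7d.

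Across the 8 groups, means of Grm2 ran from 8.06 ± 0.72 (SD, n = 5) in CIE at 8h to 8.48 ± 0.63 (SD, n = 6) in CIE at 0h, and those of the brighter Grm5 probeset from 10.96 ± 0.23 in CIE at 7d to 11.31 ± 0.14 in CIE at 0h (SD, n = 6). Those of Grm3 ran from 12.03 ± 0.11 (SD, n = 5) in CIE at 8h to 12.30 ± 0.04 (SD, n = 6) in CIE at 7d. For all 9 probesets, 0 of the 7 gaps between neighbouring means exceeded the larger SD of the 2 groups. The lowest and the highest mean lay farther apart than the larger of their SDs for 5 of 9: Grm3 (0.27), Grm4 (0.21), Grm5 1455272_at (0.35), Grm7 1458861_at (0.49) and Grm7 1459532_at (0.51). These extremes were picked from 8 means, and the share of all probesets with such a range is not given here. No difference between groups is read from this count. Tested together over the 4 times, the F test of the ethanol contrasts called 0 of 9 members (13.6% of all probesets), with the smallest adjusted p at Grm7 1458861_at (0.0337) and Grm5 1455272_at (0.0713). The change in the ethanol difference from 0h also called 0 of 9, against 3.41% of all probesets at 8h, 1.8% at 72h and 0.273% at 7d.

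Some member probesets deviated together from mouse to mouse. Of 36 pairs, 9 had an adjusted permutation p under 0.05 for both r and rho, 7 of them positive and 2 inverse, and 0 of the 9 included Grm3 or Grm8. Grm5 (1455272_at) and the brightest Grm7 probeset correlated at r = 0.79 and rho = 0.80 over the 47 deviations. The r was 0.77 without the 2 arrays of most extreme Grm7 deviation and 0.80 within repeat group 1. Grm2 correlated with that Grm7 probeset at r = 0.75 and rho = 0.78 (0.72 and 0.81 likewise), and each of these had an adjusted permutation p of 0.000168, from the smallest p that the permutations can give. Grm2 and Grm5 correlated at r = 0.57 and rho = 0.63 (adjusted permutation p = 0.00192 and 0.000560). Grm4 ran against the middle Grm7 probeset (r = −0.44, rho = −0.42, adjusted permutation p = 0.0220 and 0.0347). Grm7 (1443119_at) also correlated with the cortical markers (r = 0.60, rho = 0.58, adjusted permutation p = 0.000420 and 0.00120) and the interneuron markers (r = 0.44, rho = 0.48, adjusted permutation p = 0.0291 and 0.0178), while Grm5 gave r = 0.29 and rho = 0.30 (adjusted permutation p = 0.176 and 0.146) with the cortical and r = 0.41 and rho = 0.34 (adjusted permutation p = 0.0519 and 0.0844) with the striatal markers. Grm8 and Grm4 correlated with none of the 8 marker lists at an adjusted p under 0.05. In all, 84 relations were computed, 36 between member probesets and 48 with marker lists; arrays share processing, and no cause of these correlations was tested.

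**Figure D3:**
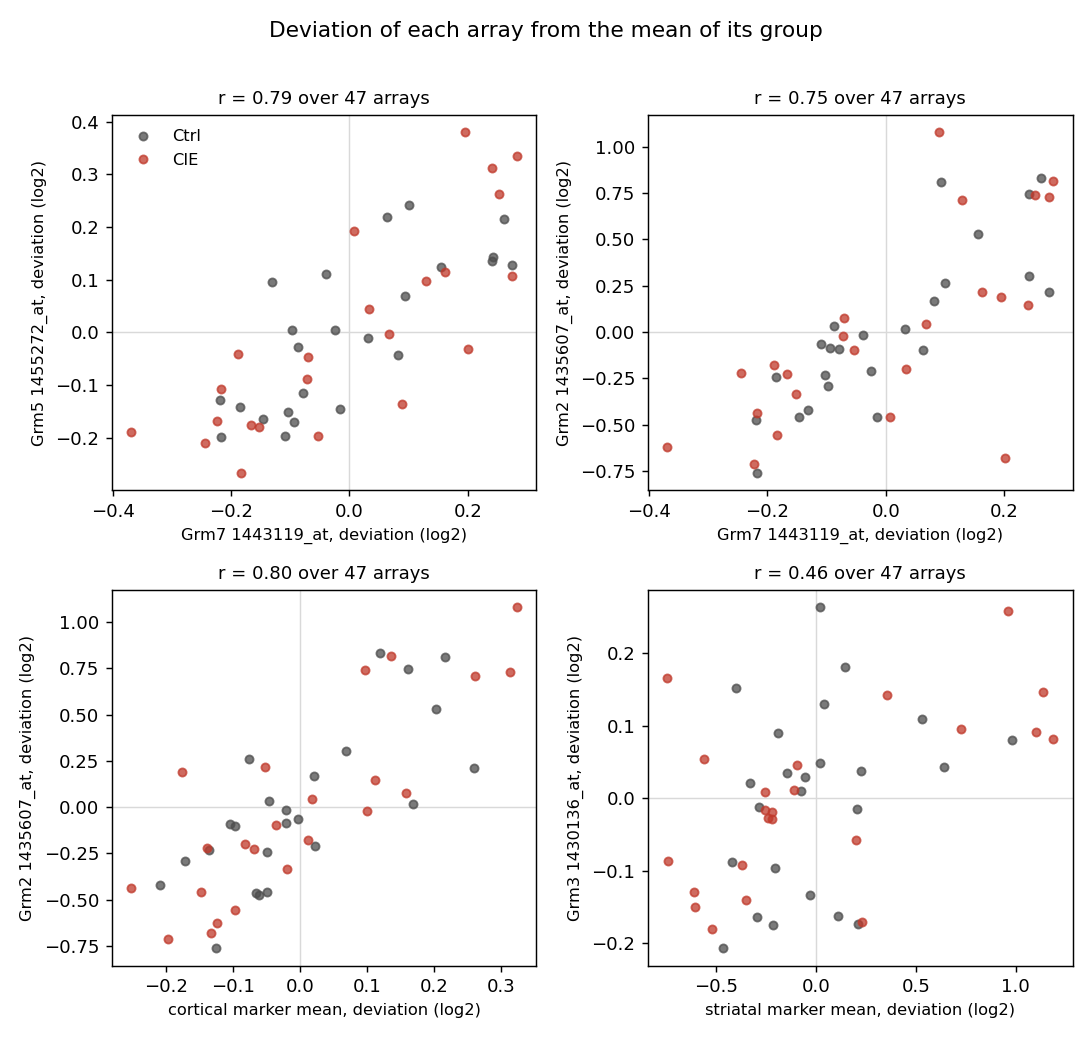
Deviation of each of 47 arrays from its group mean, in log2 units, for Grm5 against Grm7, Grm2 against Grm7, Grm2 against the cortical marker mean and Grm3 against the striatal marker mean, with Ctrl in grey and CIE in red. The first 3 pairs rise together with r between 0.75 and 0.80, and the last is looser at 0.46.

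Genes nearest to each member by this measure, are given as a description. Gucy1a1, a subunit of soluble guanylyl cyclase, was nearest to both Grm5 (r = 0.87) and Grm7 (r = 0.87). Igsf3 was among the nearest 3 of both Grm2 (r = 0.85) and Grm7 (r = 0.84), with Fam184b (r = 0.88) first for Grm2. The nearest genes of Grm3 (Cep97, r = 0.69), Grm4 (Ibtk, r = 0.66) and Grm8 (Dzip1, r = 0.69) were less close.

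Because Grm2 and Grm7 deviated together, the 250 bases before their annotated starts are shown, from RefSeq on GRCm38.p6, as context for that pair; none was listed for Grm5. The Grm2 stretch lies at chr9:106656110-106656359 on the minus strand and that of the first of 2 Grm7 starts at chr6:110645262-110645511 on the plus strand. Capitals mark the GC box letters GGGCGG on either strand, the only one of 3 searched motifs present in either.
Grm2: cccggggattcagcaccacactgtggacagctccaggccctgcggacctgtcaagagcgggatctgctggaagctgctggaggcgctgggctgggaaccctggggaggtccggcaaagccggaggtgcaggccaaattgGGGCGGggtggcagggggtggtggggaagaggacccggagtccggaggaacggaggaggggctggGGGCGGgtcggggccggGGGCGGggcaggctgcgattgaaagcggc
Grm7: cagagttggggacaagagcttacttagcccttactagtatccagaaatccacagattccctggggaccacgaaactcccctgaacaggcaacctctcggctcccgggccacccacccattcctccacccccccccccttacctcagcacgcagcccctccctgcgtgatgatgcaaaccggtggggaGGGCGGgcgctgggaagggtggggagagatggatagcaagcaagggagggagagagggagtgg
The Grm2 stretch held the GC box 3 times and the Grm7 stretch 1 time, and 32.7% of 32851 listed promoters hold it. The cyclic AMP response core TGACG (17.8% of promoters) and the E-box CACGTG (6.02%), searched on both strands, were in neither window. GC content was 71.2% for Grm2 and 62% for Grm7, against a median of 52.4%. The GC box was not particular to this pair. Grm3, which passed in no pair, held it 1 time at 62.4% GC. Of Grm8, also in no passing pair, the start with 68.4% GC held it 1 time. The other listed Grm8 starts (43.6% and 54.4% GC) did not hold it. The marked GC boxes overlap no other searched motif, and a match describes letters alone.

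The signaling partners of these receptors were each taken from the gene's brightest probeset, in lists chosen with earlier results known. Over all genes read this way, 7.44% were called at 0h, 3.49% at 8h, 0.445% at 72h and 0.726% at 7d. Of 16 measured genes of Gq coupling and phospholipase C, 1 was called at 0h and none at other times. The brightest probeset of Itpr2, a calcium release channel opened by inositol trisphosphate, rose from 7.15 to 7.50 (0.34, adjusted p = 0.00140). It was the 1 called of 6 Itpr2 probesets, of which 3 were higher in CIE mice, and they ranged from −0.25 to 0.34. Of 18 genes of Gi/o coupling and adenylyl cyclase, 0 were called at any time. The smallest p was at the adenylyl cyclase Adcy3 at 7d (0.21, adjusted p = 0.0152), followed by the channel Trpm1 at 8h (0.34, adjusted p = 0.0254). In these lists 11 of 16 and 10 of 18 genes had a higher mean in CIE mice at 0h.

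Of 17 scaffolds and binding partners, 1 was called: Homer1, which tethers Grm5 to the postsynaptic density, rose at 8h from 12.24 to 12.54 (0.31, adjusted p = 0.00674). The other 5 Homer1 probesets were not called and ranged with it from −0.67 to 0.74, so that the value belongs to that probeset. Of 14 genes of receptor desensitization and turnover, 3 were called at 0h. Rgs2, which shortens Gq signals, fell by 0.36 (adjusted p = 7.18e-05), with 1 of its 4 probesets called and all 4 lower in CIE mice. Fmr1, the fragile X RNA-binding protein that restrains translation driven by group I receptors, fell by 0.21 (adjusted p = 0.00542) at 1 of 3 probesets, which ranged from −0.21 to 0.30. Caln1, a calcium-binding protein of the calneuron family, rose by 0.50 (adjusted p = 0.00175). Its 3 probesets, of which 2 were called, ranged from −0.03 to 0.50. Of 14 genes of glutamate supply and clearance, Glud1, the mitochondrial glutamate dehydrogenase, fell at 8h. The fall was 0.29 at its brightest probeset (adjusted p = 0.000344) and 0.36 at the other, and both were called. No gene of these 5 lists was called at 72h or 7d, and the median difference of a list lay between −0.07 and 0.04 at every time, against −0.0088 to 0.014 over all genes read from their brightest probeset.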

How the data were processed

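Medial PFC RNA of individual mice was hybridized to Affymetrix 430 2.0 arrays. The authors deposited log2 values for each probeset. RMA is named in the submitters' processing notes, and the study's methods add quantile normalization and ComBat on repeat group in PFC, with versions not given in the sources used here. ComBat on a batch made of 8h mice may distort 8h levels and differences. The number of mice limits precision. Groups, mouse numbers and repeat groups came from the labels. Values were used unfiltered. Symbols were updated by Entrez identifier for 34741 probesets.

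All 47 arrays were fitted with LIMMA (limma 3.58.1, R 4.3.3; reading with data.table, version 1.17.8), 1 mean per group. CIE minus Ctrl at each time, differences between times and F tests were adjusted by Benjamini-Hochberg over 45037 probesets and called at FDR ≤ 0.01; these are the adjusted p-values printed unless named permutation p. Contrasts against 0h share the 0h arrays. Two-sided permutation tests of correlations shuffled deviations within groups (100000 resamples; SciPy 1.17.1, NumPy 2.4.6, Python 3.11.15) with Benjamini-Hochberg over 84 relations. The code was tested on simulated data.

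Full values were given for the brightest probeset of each gene and that of smallest p, with the 3 genes most like each member; of each partner list, up to 4 called genes, or the 2 of smallest p. Members and lists were chosen with earlier results of these data known. Alternatives were another FDR, fits, scalings, filters, batch and marker terms and leaving out each array.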

Additional observations from a re-analysis of the deposited data

Results flagged for a closer look

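Among 72 sets of one probeset in one group, 4 held a mouse farther from the rest than the 95% limit of Dixon's ratio allows, and chance gives about 1 in 20. Grm3 read 12.38 in CIE mouse 7 at 7d, with the other 5 between 12.27 and 12.31. In the same mouse the dimmest Grm7 probeset (1459532_at) read 5.32, with the others between 5.02 and 5.10. That probeset read 4.10 in Ctrl mouse 20 at 0h, with the others between 4.64 and 4.86. Grm4 read 7.69 in CIE mouse 69 at 8h, with the other 4 between 7.45 and 7.50. The causes were not tested.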

How the results depend on the processing

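No member was called at any time in the fits with another variance prior, repeat group as a term, either renormalization, either marker term, each time point alone, without dim probesets (which drops Grm7 1459532_at), without repeat group 2 or without any single array. With array weights, which raised the calls over all probesets to 5240 at 0h and 6772 at 8h, 1 member was called at 0h (Grm5 1455272_at) and 2 in the F test of the Ctrl groups. The share of all probesets called in that F test with array weights is not given here, so the 2 cannot be set against it. At FDR ≤ 0.05, 1 was called at 8h (11.1% of all probesets) and 1 in the F test of the ethanol contrasts (Grm7 1458861_at). Already at FDR ≤ 0.01 that F test called 13.6% of all probesets. Over all settings but FDR ≤ 0.05, all-probeset calls ranged from 1110 to 5240 at 0h, 610 to 6772 at 8h, 13 to 881 at 72h and 26 to 2579 at 7d.

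Signs turned for values whose 95% interval held 0. Without repeat group 2, the 8h difference became −0.041 for Grm5 1455272_at and −0.048 for Grm7 1443119_at, and the latter's 8h minus 0h difference −0.20. With array weights these were −0.031, −0.022 and −0.24, and Grm2 at 7d was 0.067. With the cortical term Grm2 at 7d was 0.062, Grm5 1456119_at at 72h minus 0h −0.0086, Grm7 1443119_at at 8h minus 0h −0.10 and Grm8 at 7d −0.0047. Median centring gave −0.0053 for the same Grm7 difference, renewed quantile normalization 0.000258 for Grm4 at 7d minus 0h, and the striatal term −0.044 for Grm3 at 0h. Repeat group 2 alone moved the 8h difference of Grm5 1455272_at to 0.30 and of Grm7 1443119_at to 0.45, and turned that of Grm8 to 0.020 (−0.15 in repeat group 1) and that of Grm2 to 0.14 (−0.61). The causes were not tested.

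Leaving out 1 array turned the sign of 14 values. Grm2 ranged from −0.247 to 0.050 at 72h, −0.183 to 0.130 at 7d and −0.089 to 0.0076 for the mean of the 4 times. Grm3 ranged from −0.028 to 0.057 at 7d minus 0h, and Grm4 from −0.034 to 0.094 at 72h and −0.042 to 0.040 at 7d minus 0h. Grm5 1456119_at ranged from −0.054 to 0.174 at 8h, −0.171 to 0.057 at 8h minus 0h and −0.048 to 0.119 at 72h minus 0h. Grm7 1443119_at ranged from −0.066 to 0.097 at 8h minus 0h and −0.089 to 0.00999 at 72h minus 0h. Grm7 1459532_at ranged from −0.334 to 0.027 at 8h and −0.022 to 0.232 at 72h, and Grm8 from −0.044 to 0.031 at 7d. No paired analysis was possible because no mouse number occurs in more than 1 group. Signal over background was not measured here, and 6 mice a group left 95% intervals of ±0.16 (Grm3) to ±0.57 (Grm2) at 0h.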

Other observations

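Averaged over the 4 times, a comparison added after the data were seen, CIE minus Ctrl was 0.16 for Grm7 1458861_at (95% confidence interval 0.03 to 0.29, adjusted p = 0.0656) and 0.11 for Grm5 1455272_at (0.01 to 0.22, adjusted p = 0.129). It was −0.08 for Grm8 (−0.17 to 0.01), −0.03 for Grm4 (−0.11 to 0.05), −0.02 for Grm3 (−0.10 to 0.06) and −0.03 for Grm2 (−0.32 to 0.25). For Grm3 and Grm4 these intervals allow folds of 0.924 to 1.04, and none of the averaged differences passed FDR ≤ 0.01. Ctrl mice also differed between harvest times at the dimmest Grm7 probeset, by 0.51 at 8h against 0h (95% confidence interval 0.10 to 0.93, adjusted p = 0.141), which did not pass.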
